A study of Mus musculus with 4 samples.

Results

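The genes of polyamine synthesis and catabolism were examined in mouse primary myotubes, the multinucleate muscle cells that form when cultured myoblasts fuse. The set of 10 genes was given by name: *Odc1*, *Amd1*, *Srm*, *Sms*, *Smox*, *Sat1*, *Oaz1*, *Oaz2*, *Azin1* and *Azin2*. The rule used their names and no measured value, though the genes were chosen with earlier results of these data known. All 10 were found among the 53647 genes of the count tables, and all 10 passed the filter on low counts that left 15173 genes for testing. Bulk RNA sequencing compared 2 libraries of wild-type myotubes labelled as control with 2 libraries of wild-type myotubes given EDA-A2, a ligand of the TNF family that acts through the receptor EDA2R. The comparison asks which transcripts change when that receptor is activated in muscle cells. Myoblasts came from limb muscle of pups aged 2 to 3 days and were differentiated for 48 h. EDA-A2 was then given at 250 ng/mL for 24 h, and cells were harvested at 72 h. All 4 libraries share the wild-type genotype and the differentiation medium. Nothing in the labels says whether the 2 libraries of a condition came from separate cultures or animals, so the p-values measure only the spread between these libraries, which may be technical.

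Polyamines are small, positively charged molecules that bind nucleic acids and are needed for translation and growth. Ornithine decarboxylase (*Odc1*) makes putrescine from ornithine, and 2 synthases, spermidine synthase (*Srm*) and spermine synthase (*Sms*), lengthen it in turn with aminopropyl groups taken from the product of S-adenosylmethionine decarboxylase (*Amd1*). Spermine oxidase (*Smox*) and the acetyltransferase *Sat1* run the pathway backwards. Antizymes (*Oaz1*, *Oaz2*) bind ornithine decarboxylase and send it to the proteasome, and antizyme inhibitors (*Azin1*, *Azin2*), which resemble the decarboxylase but lack its activity, bind antizyme in its place. In skeletal muscle, *Amd1* and *Smox* are known as genes that favour the upkeep of muscle mass. Much of the control of ornithine decarboxylase, antizyme and *Sat1* is exerted on translation and protein stability, which mRNA counts do not measure.

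The best known of these controls lies within the antizyme mRNAs. Ribosomes read the first frame of an antizyme mRNA up to a stop codon and, when polyamines are plentiful, slip forward by a single base to go on in the next frame. The sites are shown because *Oaz1* and *Oaz2* were the pair of members that share this sequence, and they are read from GRCm39 on the plus strand at chr10:80664114-80664143 for *Oaz1* and chr9:65593539-65593568 for *Oaz2*. Capitals mark the slippage site with the stop codon TGA of the first frame.
Oaz1: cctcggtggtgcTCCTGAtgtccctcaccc
Oaz2: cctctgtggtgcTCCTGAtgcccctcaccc
Of the 30 bases in each window, 28 were the same in both genes, and the differences were G5T and T21C, with the *Oaz1* base first and positions counted from 1 at the 5′ end of the window. In each gene 29 of the 30 bases lay in the annotated coding sequence of the canonical transcript, because the annotation leaves out 1 base to join the frames (position 80664129 of chromosome 10 and position 65593554 of chromosome 9). Reads on either side of the site count towards the same gene, so the counts below say nothing of how often ribosomes shifted frame.

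Depth was nearly equal, from 29444155 to 29746863 read pairs on genes in each library, and TMM scaling factors lay between 0.972 and 1.026. A count of 0 at this depth allows up to 3 counts, or 0.101 to 0.102 CPM, counts scaled by library size, and such limits cover counting error only. All 6 NFκB target genes listed were called higher (median log2 fold change 1.66), beside 2.45% of all genes tested. Among them *Nfkbia* had 1371 and 1271 normalized counts in control and 3550 and 3558 with EDA-A2. The list was chosen with earlier results of these data known, so it describes the response and is no independent check of the treatment. All 8 myotube markers were detected and summed to 531142 and 515931 normalized counts in control against 398006 and 387716 with EDA-A2. Of these 8 markers 3 were lower after EDA-A2 (*Myh3*, *Myh8* and *Actc1*), and of 4 myoblast markers *Cdh15* was lower. The part of these markers in the values of the polyamine genes was not tested. Markers of dividing cells (0 of 6 tested), fibroblasts (0 of 4), macrophages (0 of 2) and endothelial cells (0 of 1) did not pass the test. The fibroblast markers *Thy1* and *Lum* had 0 counts in every library, and *Ptprc*, *Adgre1* and *Lyz2* of macrophages had at most 3. The rest of the fibroblast list was present, with raw counts per library of 38820 to 45682 for *Col3a1* and 4769 to 9004 for *Col1a1*. *Pdgfra* had 240 to 308 and *Dcn* 73 to 138. Among macrophage markers *Cd68* had 54 to 81 raw counts, *Itgam* 18 to 39 and *Csf1r* 1 to 8, so such cells cannot be called absent. In bulk samples, fewer cells of a type and less RNA per cell cannot be told apart.

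None of the 10 polyamine genes passed the test at an adjusted p of 0.05 (edgeR's quasi-likelihood fit, Benjamini-Hochberg over all 15173 genes), against 694 of all genes tested, or 4.57%. By direction that background was 2.45% of genes higher and 2.13% lower, and the members had 0 in each. With total counts in place of TMM, 485 genes were higher and 194 lower, in place of 371 and 323, and the members again had 0 in each. None reached an unadjusted p of 0.05 in this fit either, and the DESeq2 Wald test also gave 0 members by both measures. Adjusted p-values ran from 0.408 to 0.982. Fitted log2 fold changes were positive for 5 genes and negative for 5, with a median of -0.013 beside -0.0021 for all genes tested. The largest was 0.16 in size, while the smallest change that passed the test in any gene was 0.24. Intervals of 95% for the 10 genes together reached from -0.32 to 0.35 on the log2 scale, which is 0.803-fold to 1.27-fold. Changes beyond those bounds lie outside every member's interval, while a change within a gene's own interval is compatible with its 4 libraries. The summed normalized counts of the 10 genes were 37150 and 35402 in control and 36068 and 35940 with EDA-A2, so the EDA-A2 libraries lay between the control libraries.

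**Figure D1:**
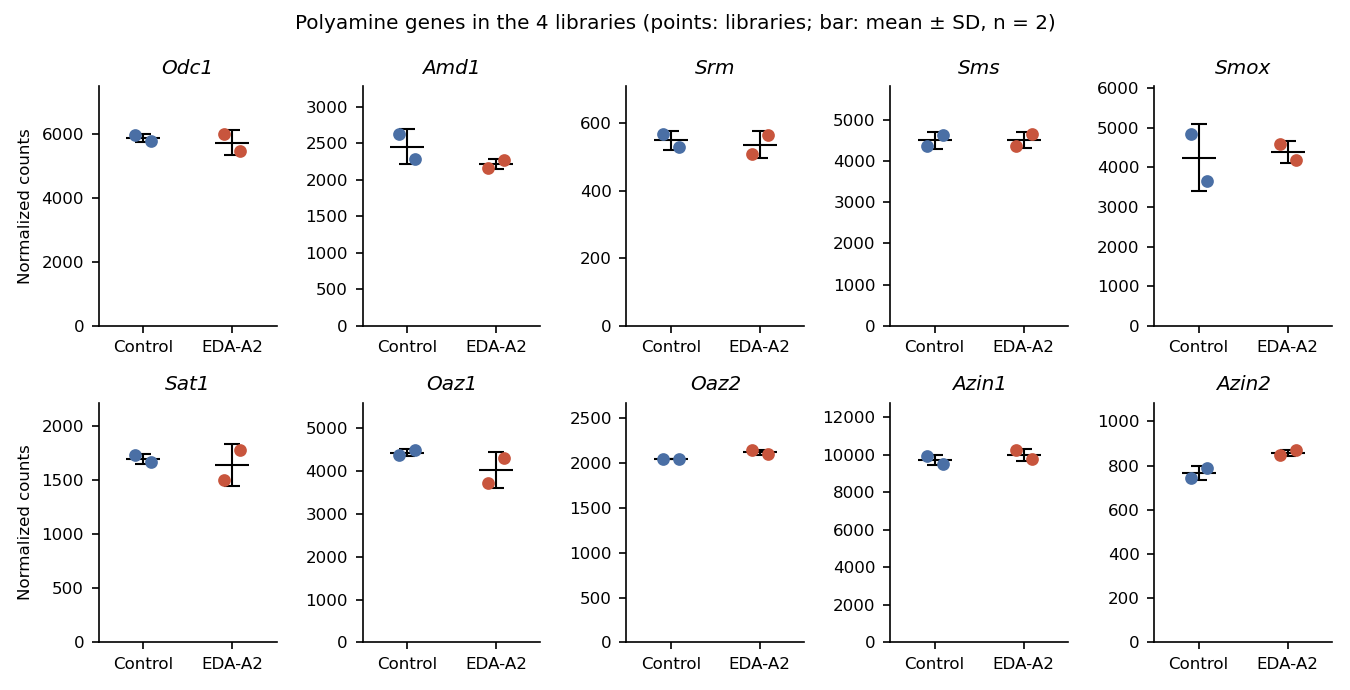
Normalized counts (vertical axes, each starting at 0) of the 10 polyamine genes in the 2 control libraries (blue) and the 2 EDA-A2 libraries (red), with the mean and SD of each group as bars. The groups overlap in 6 genes, and in *Amd1*, *Oaz1*, *Oaz2* and *Azin2* they are separate by small margins.

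Synthesis begins with *Odc1* (ENSMUSG00000011179, chr12:17594383-17601507, plus strand), which had 5961 and 5789 normalized counts in control and 6006 and 5460 with EDA-A2. The EDA-A2 libraries lay on either side of the control libraries, so the groups overlapped. Means were 5875 ± 122 and 5733 ± 386 (SD, n = 2), and the log2 fold change was -0.035 (SE 0.070, interval -0.18 to 0.11, edgeR adjusted p = 0.885).

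For *Amd1* (ENSMUSG00000075232, chr10:40162797-40178185, minus strand), which supplies the aminopropyl donor, the libraries held 2629 and 2286 normalized counts in control and 2166 and 2269 with EDA-A2. Both EDA-A2 libraries were below both controls, the nearer pair by 2286 against 2269, and the control libraries were further apart than the group means. Its log2 fold change of -0.15 (SE 0.079, interval -0.32 to 0.020) had an edgeR adjusted p of 0.410, and as a fold the interval ran from 0.803 to 1.01. The value was -0.042 without control replicate 1 and -0.24 without control replicate 2, with adjusted p-values of 0.771 and 0.246.

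Neither of the synthases showed a separation of the groups. *Srm* (ENSMUSG00000006442, chr4:148675940-148681792, plus strand) had 568 and 529 normalized counts in control and 508 and 565 with EDA-A2, a log2 fold change of -0.032 (SE 0.10, interval -0.25 to 0.18, edgeR adjusted p = 0.932). *Sms* (ENSMUSG00000071708, chrX:156226848-156275317, minus strand) had 4355 and 4635 in control and 4373 and 4652 with EDA-A2. These pairs were almost the same, and the log2 fold change of *Sms* was 0.0056 (SE 0.069, interval -0.14 to 0.15, edgeR adjusted p = 0.982), the smallest among the 10 genes.

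Of the catabolic genes, *Smox* (ENSMUSG00000027333, chr2:131333416-131368431, plus strand), whose enzyme oxidizes spermine back to spermidine, had 4839 and 3648 normalized counts in control and 4581 and 4185 with EDA-A2. The control libraries enclosed both EDA-A2 libraries and differed from each other by 0.41 on the log2 scale, the widest gap between replicates among the members. Its log2 fold change was 0.047 (SE 0.10, interval -0.17 to 0.27, edgeR adjusted p = 0.896). The sign of that value rested on single libraries, since it was 0.27 without control replicate 1 and -0.14 without control replicate 2.

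*Sat1* (ENSMUSG00000025283, chrX:153996128-153999452, minus strand), which acetylates spermidine and spermine for export or oxidation, had 1731 and 1666 normalized counts in control and 1502 and 1777 with EDA-A2. Here the EDA-A2 libraries enclosed the controls, with means of 1698 ± 46.0 and 1639 ± 195 (SD, n = 2). The log2 fold change of -0.051 (SE 0.085, interval -0.23 to 0.13) had an edgeR adjusted p of 0.861.

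Among the antizymes, *Oaz1* (ENSMUSG00000035242, chr10:80662516-80665124, plus strand) had 4372 and 4484 normalized counts in control and 3720 and 4316 with EDA-A2. Both EDA-A2 libraries were below both controls, replicate 2 only slightly. The log2 fold change was -0.14 (SE 0.077, interval -0.30 to 0.023, edgeR adjusted p = 0.427), and it was -0.036 without EDA-A2 replicate 1 and -0.25 without EDA-A2 replicate 2, where the lower adjusted p, that of the second, was 0.289. *Oaz2* (ENSMUSG00000040652, chr9:65575283-65597582, plus strand) gave 2048 normalized counts in each control library and 2143 and 2100 with EDA-A2. The groups did not overlap, yet the difference was small, at 0.051 on the log2 scale (SE 0.069, interval -0.098 to 0.20, edgeR adjusted p = 0.820). Its control libraries lay within 1 normalized count of each other, and edgeR moderates so small a spread with that of all genes.

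The antizyme inhibitor *Azin1* (ENSMUSG00000037458, chr15:38487539-38519785, minus strand) had 9902 and 9525 normalized counts in control and 10221 and 9746 with EDA-A2, with overlapping groups and a log2 fold change of 0.040 (SE 0.067, interval -0.10 to 0.18, edgeR adjusted p = 0.864). *Azin2* (ENSMUSG00000028789, chr4:128822025-128856568, minus strand), the relative known mainly from testis and brain, had 744 and 791 in control and 849 and 869 with EDA-A2. Both EDA-A2 libraries were above both controls, with means of 767 ± 33.0 and 859 ± 14.1 (SD, n = 2). At 0.16 (SE 0.086, interval -0.022 to 0.35) its log2 fold change was the largest of the members, with an edgeR adjusted p of 0.408. As a fold this was 1.12, with an interval of 0.985 to 1.27.

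Altogether the groups did not overlap in 4 of the 10 genes, 2 with EDA-A2 higher (*Oaz2*, *Azin2*) and 2 with EDA-A2 lower (*Amd1*, *Oaz1*). Over all genes tested, such a separation was seen in 6824, or 45%, so the share among the members was near the background. Their median change in size was 0.049 on the log2 scale, beside 0.11 over all genes tested and 0.079 over the 7787 genes at or above the level of the least counted member. Of those 7787 genes 6.28% were called. The standard error of a member's log2 fold change had a median of 0.078, compared with 0.10 over all genes.

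**Figure D2:**
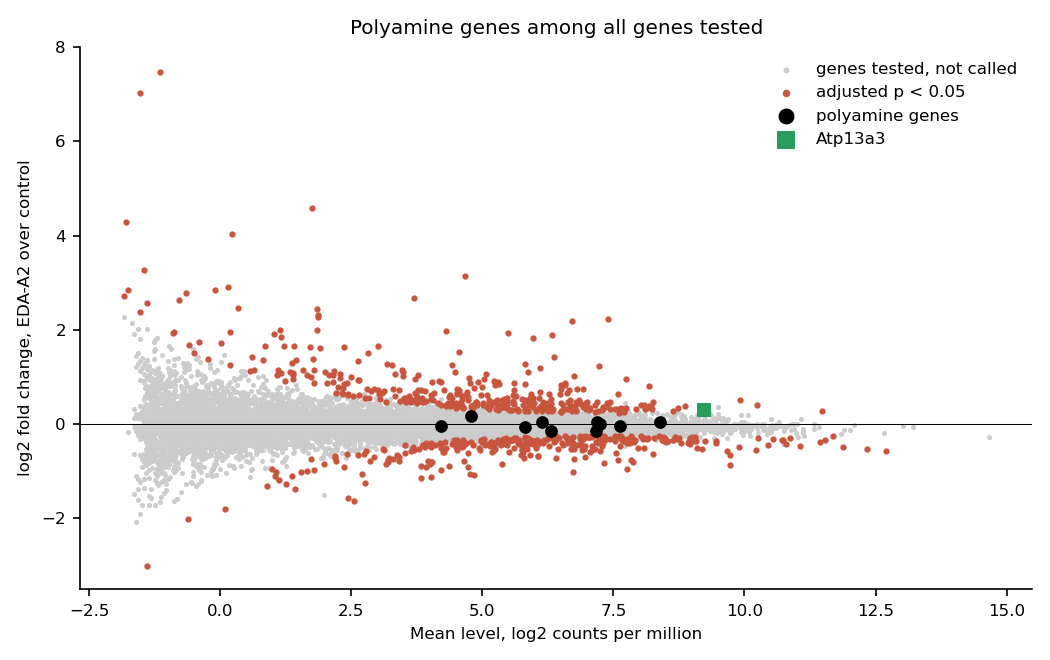
Log2 fold change (EDA-A2 over control) against mean level (log2 CPM) for the 15173 genes tested, with the 694 genes at an adjusted p under 0.05 in red, the 10 polyamine genes in black and *Atp13a3* as a green square. The black points are at most 0.16 from 0 (to 2 decimals), inside the band of genes that were not called, and the square lies above it.

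Levels of different genes were compared per transcript length, in TPM, the transcript share scaled to a fixed total, computed from the counts and the merged exon length of each gene, as a description with no test. *Oaz1* was the highest at 269 ± 15.8 TPM (SD over the 4 libraries, as for all values here). *Azin1* (166 ± 9.56 TPM) and *Odc1* (166 ± 8.70 TPM) followed and overlapped in range. *Sms* (116 ± 5.74 TPM) and *Oaz2* (112 ± 6.27 TPM) overlapped as well, and below them came *Sat1* at 97.0 ± 5.97 TPM.

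*Smox* (77.8 ± 9.71 TPM) and *Amd1* (70.1 ± 4.10 TPM) again overlapped. *Srm* stood at 20.2 ± 0.910 TPM and *Azin2*, the lowest, at 8.89 ± 0.900 TPM. Per length, *Oaz1* stood above its target *Odc1* in each library, at 269 and 281 TPM against 164 and 162 TPM in control and at 247 and 280 TPM against 178 and 159 TPM with EDA-A2.

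The length assumed for a gene matters for its place. With the length of the canonical transcript in place of all merged exons, *Azin2* had 33.2 TPM and *Srm* 34.2 TPM, because the merged exons of *Azin2* span 14813 bases and its canonical transcript 2104. *Oaz1* was then at 346 TPM and *Odc1* at 215 TPM, *Oaz1* stayed the highest and *Azin2* the lowest, and *Sat1* moved from the sixth place to the fourth. With the longest transcript, *Azin1* (203 TPM) was above *Oaz1* (191 TPM), and *Srm* (15.6 TPM) was below *Azin2* (16.3 TPM).

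**Figure D3:**
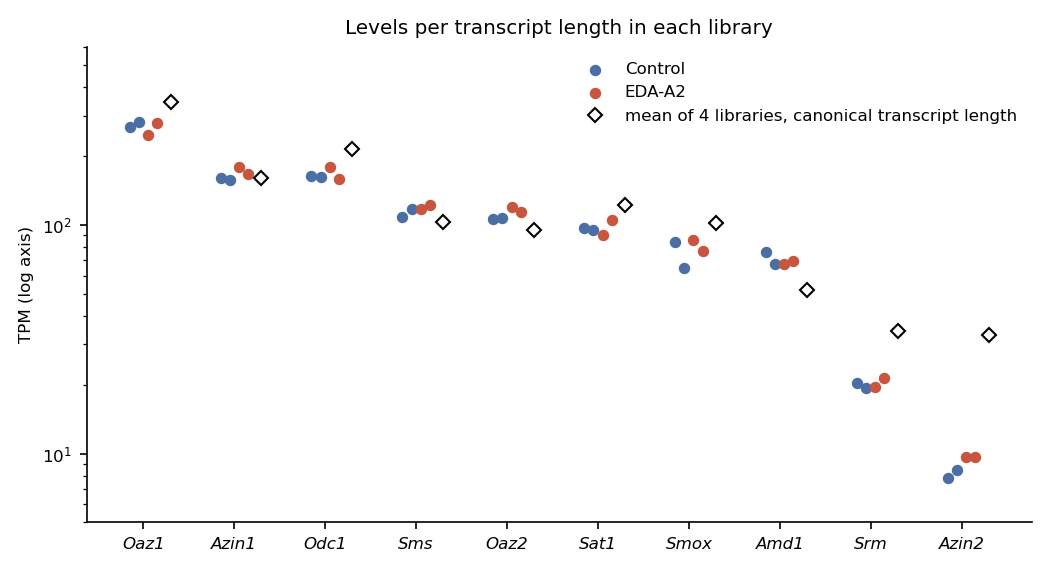
TPM on a log axis for the 10 genes in the 2 control (blue) and 2 EDA-A2 (red) libraries, from merged exon lengths, with diamonds for the mean of the 4 libraries under canonical transcript lengths. From *Oaz1* at 269 TPM to *Azin2* at 8.89 TPM the genes differ far more than the libraries of any gene do, and the diamonds of *Srm* and *Azin2* stand well above their points.

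Many of these genes have processed copies elsewhere in the genome, and read pairs that map equally well to 2 places are not counted for either. Stretches of at least 100 bases with at least 95% identity elsewhere in GRCm39 covered 99.3% of the canonical transcript of *Oaz1*, 96.7% of *Oaz2*, 90.0% of *Sat1*, 87.8% of *Odc1*, 82.8% of *Amd1* and 44.2% of *Sms*. No such copy was found for *Smox*, *Srm*, *Azin1* or *Azin2*. Levels of the first 6 genes are thus uncertain. Genes annotated at the copies had counts of their own, summed over the 4 libraries, of 79 for *Oaz1-ps* and 203 for *Gm6712* (copies of *Oaz1*), 781 for *Gm1976* and 64 for *Amd2* (*Amd1*), 155 for *Sms-ps* and 6 for *Oaz2-ps*. Other copies lie within the bounds of genes with higher counts, 11605 for *Dnajb6* (*Sat1*), 4684 for *Banp* (*Odc1*) and 3722 for *Manba* (*Oaz2*), and how many of those counts came from the copies was not tested. The strand option of the counting is not given in the sources used here, so antisense partners are a further doubt. *Gm49077* opposite *Azin1* had 16 counts in all and *Gm15904* opposite *Azin2* had 0. *Gm30679* opposite *Smox*, *Gm59592* opposite *Odc1*, *Gm68058* opposite *Oaz1* and *Gm57066* opposite *Azin2* were not in the count tables. Their part in the counts of those members is unknown.

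The wider pathway was taken as 6 lists of 32 genes in all, with 5 lists for genes that make, feed, use or move polyamines and 1 list for the Myc network of transcription regulators. Of the 28 that were tested, 10 had a positive and 18 a negative log2 fold change (median -0.061), 1 passed the test as higher and none as lower. That is 3.57% called, beside 4.57% of all genes tested. At an unadjusted p of 0.05 there were 5, or 17.9%, beside 15.6% of all genes tested, so both shares were near the background. The DESeq2 Wald test gave 3 at that level and also called 1.

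The gene that rose was *Atp13a3* (ENSMUSG00000022533, chr16:30131241-30224793), a membrane ATPase of the endosomal system known to take part in polyamine uptake. Its normalized counts were 16535 and 15277 in control and 19490 and 19582 with EDA-A2. Both EDA-A2 libraries were above both controls, by a log2 fold change of 0.30 (SE 0.069, interval 0.15 to 0.44, edgeR adjusted p = 0.0221), or 1.23-fold. Per length it stood at 234 and 220 TPM in control and 298 and 293 TPM with EDA-A2, near the level of *Oaz1*. The call was lost when offsets for length and GC content were fitted (log2 fold change 0.23, edgeR adjusted p = 0.118). It was also lost when no low-count filter was used (edgeR adjusted p = 0.166), where only 64 of all genes were called higher and 22 lower. With any 1 library left out its log2 fold change was 0.24 to 0.36. The call was lost in each of those fits too. They leave a lone library in a condition, so they are no firm check of it.

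The other transport genes did not pass. *Slc3a2*, the heavy chain of amino acid exchangers that has also been linked to polyamine export, had 10183 and 8892 normalized counts in control and 8645 and 9393 with EDA-A2, so the groups overlapped. *Atp13a2*, the lysosomal polyamine exporter, had a log2 fold change of 0.099 (SE 0.11).

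Spermidine is also the substrate for hypusine, the modified lysine of the translation factor eIF5A. None of the 4 genes on that list was called, 2 with positive and 2 with negative values. *Eif5a* itself was nearest, with 11907 and 10844 normalized counts in control and 13030 and 13954 with EDA-A2, a log2 fold change of 0.25 (SE 0.072) and an edgeR adjusted p of 0.0729. It was called with total counts in place of TMM (adjusted p = 0.0208). A near-identical copy covered 55.6% of its canonical transcript, and the genes *Gps2* and *Ybx2* overlap it on the opposite strand. *Eif5a2*, its close relative, had 426 and 500 in control and 480 and 425 with EDA-A2, with overlapping groups.

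The remaining lists held no call. Of other polyamine enzymes, 3 of 4 were tested. *Paox*, the peroxisomal oxidase of acetylated polyamines, had 102 and 109 normalized counts in control and 85.3 and 104 with EDA-A2, and *Sat2*, a relative of *Sat1*, had 73.2 and 86.7 against 104 and 117, a log2 fold change of 0.46 (SE 0.20, edgeR adjusted p = 0.265). Both had SEs of 0.20, beside a median of 0.078 for the members. *Oaz3*, the antizyme known from sperm formation, was not tested, with 0 and 8 counts in control and 4 and 6 with EDA-A2.

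Ornithine can come from arginine, but the arginases were near the floor, with *Arg1* at 1 count in all libraries together and *Arg2* at 2 to 5 counts in each. Of the 3 tested genes of arginine and ornithine supply, 1 was positive and 2 negative, among them the arginine transporter *Slc7a1* at 3989 and 3287 normalized counts in control and 3498 and 3551 with EDA-A2. *Oat*, the mitochondrial ornithine aminotransferase, had a log2 fold change of -0.076 (SE 0.073).

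The methionine list covers the making of S-adenosylmethionine and the salvage of the by-product of the 2 synthases, and 2 of its 8 genes were positive and 6 negative. *Mat2a*, which makes S-adenosylmethionine, had 6966 and 6162 normalized counts in control and 7896 and 7170 with EDA-A2, with separate groups and a log2 fold change of 0.20 (SE 0.077, edgeR adjusted p = 0.200). *Mtap*, the salvage phosphorylase, was at -0.085 (SE 0.069).

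In the Myc network, which includes known regulators of *Odc1* transcription, 2 of 6 genes were positive and 4 negative. *Mycl* had 1878 and 1153 normalized counts in control and 1376 and 1394 with EDA-A2, and *Mxd4* had 1404 and 1692 against 1264 and 1420. The groups overlapped in both.

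**Figure D4:**
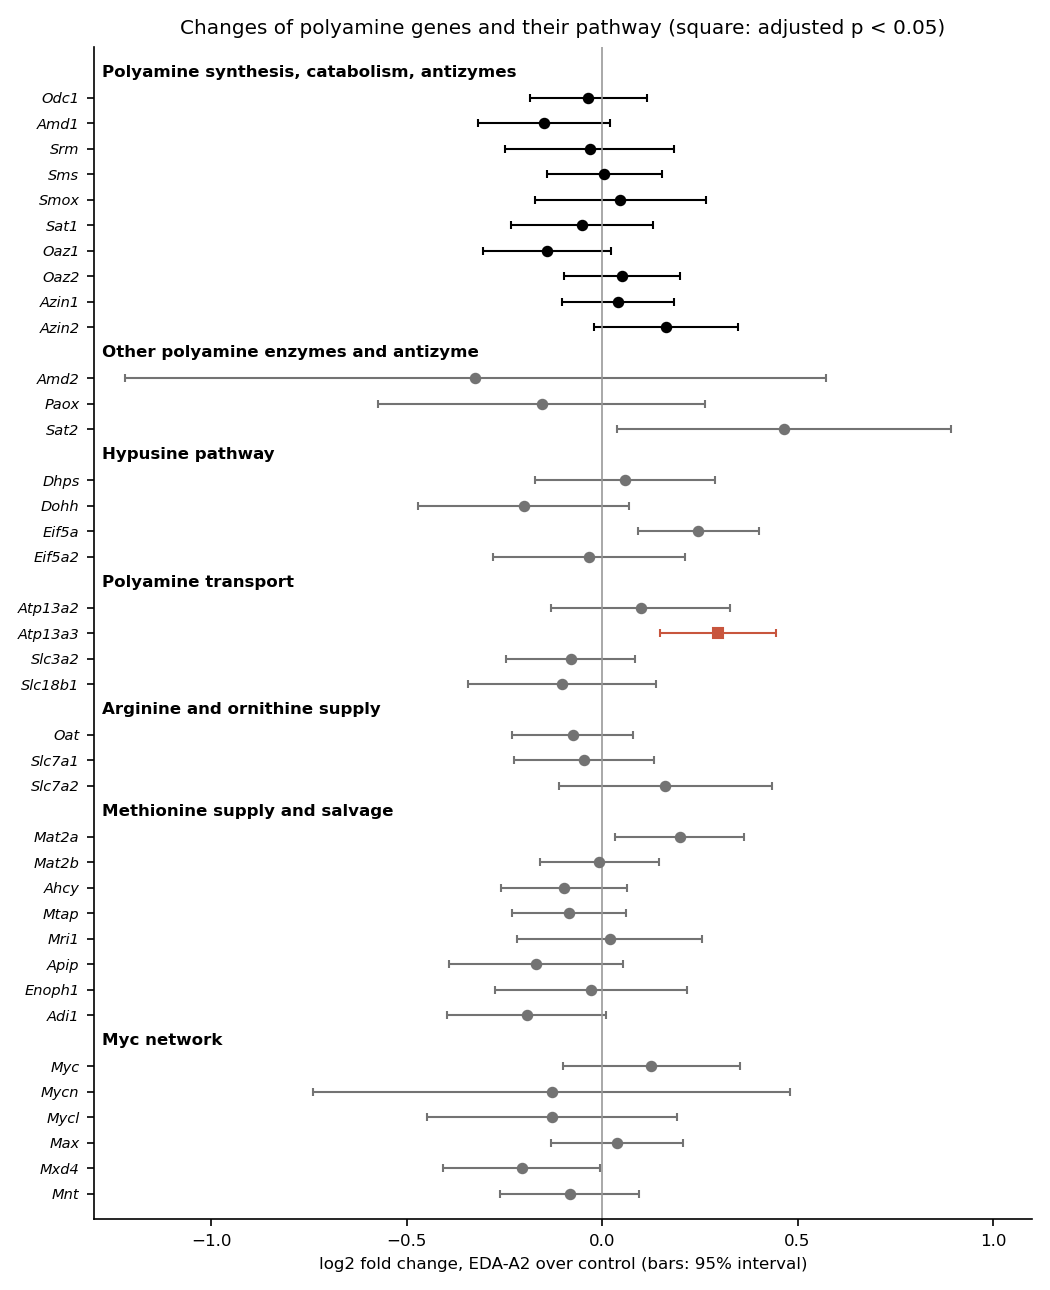
Log2 fold change (EDA-A2 over control) with its 95% interval for the 10 polyamine genes (black) and the 28 tested genes of the 6 wider lists (grey, or a red square where the adjusted p was under 0.05). The 10 intervals at the top all include 0 and reach from -0.32 to 0.35, and the only square is *Atp13a3* at 0.30.

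No member was called under another scaling, filter or model, nor with any 1 library left out, but the fits without a control library called 0 genes of any kind and so are no check of the members' calls. Over 13 alternatives for each of 10 genes, 117 of 130 fitted values kept their sign, 13 had the opposite sign, and the lowest adjusted p was 0.224 (*Azin2* with total counts). *Amd1* and *Oaz1* were negative and *Oaz2* and *Azin2* positive under all 13, while the other 6 genes changed sign at least once.

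**Figure D5:**
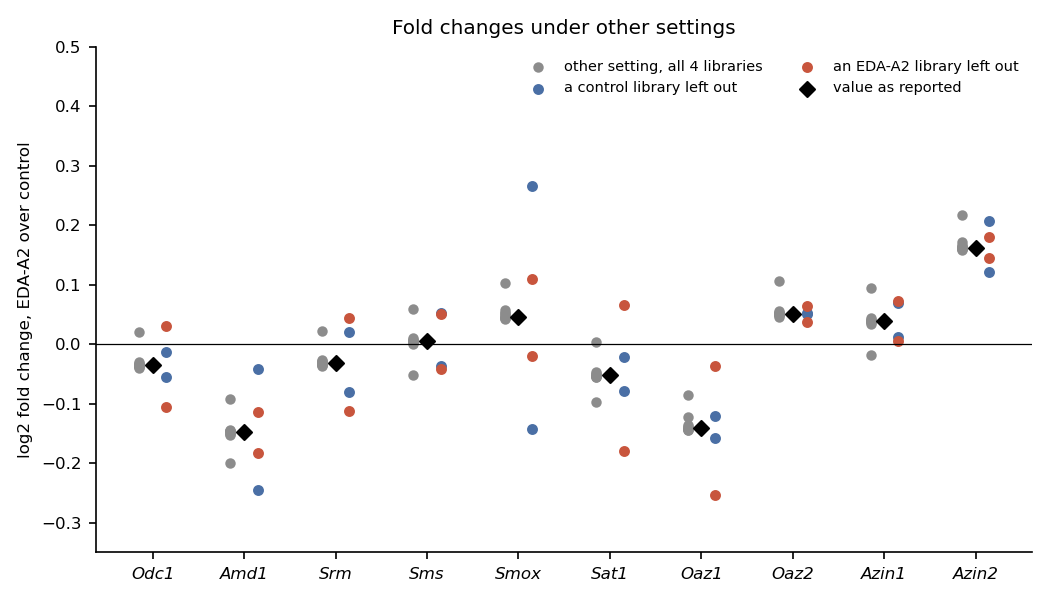
Log2 fold change (EDA-A2 over control) of each gene as reported (diamond), under other settings with all 4 libraries (grey) and with a control (blue) or an EDA-A2 library (red) left out. Values range from -0.25 for *Oaz1* to 0.27 for *Smox*, and single libraries move *Smox* the most.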

How the data were processed

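Processed data came from 4 bulk RNA-seq libraries of mouse primary myotubes. According to the methods, the authors checked reads with FastQC 0.11.9 and MultiQC 1.12, trimmed them with Trim Galore 0.6.5, mapped them to GRCm39 with STAR 2.7.3a and counted them with HTSeq 0.11.1. The annotation release and strand option are not given in the sources used here. The deposited values are raw counts of read pairs per Ensembl gene, unnormalized. Lines of HTSeq that name no gene were left out. They included 6.68% to 7.40% of pairs with no counted feature, 0.946% to 0.986% ambiguous and 4.56% to 4.76% not uniquely mapped. Depth on genes was 29569266 and 29637139 (control) and 29444155 and 29746863 (EDA-A2). Chi-square per gene was 9.33 within control, 4.45 within EDA-A2 and 14.9 to 20.5 between conditions, so no library was a duplicate.

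Symbols, lengths and coordinates came from GENCODE on GRCm39, which matched 52610 of 53647 genes. Counts were fitted in R 4.3.3 with edgeR 4.0.16 (TMM, filterByExpr with a minimum count of 10 and total of 15, glmQLFit, glmQLFTest, condition as the only term), with Benjamini-Hochberg adjustment over the 15173 genes kept and a threshold of 0.05. Standard errors are the log2 fold change over the square root of F, and 95% intervals use the t distribution at the fit's degrees of freedom. Normalized counts are counts brought to a common size, the mean of the TMM-adjusted totals. Single genes were not given permutation tests, since 2 against 2 cannot go below an exact two-sided p of 0.333. Copies were searched with blastn 2.17.0. Steps were tested on simulated counts.

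Other settings tried were, for scaling, total counts, upper quartile factors and the size factors of DESeq2, for filtering, none beyond 1 count and a minimum of 10 counts in each of the libraries, and for the model, the Wald test of DESeq2 1.42.0 and a replicate block. Further ones were protein-coding genes only, loess offsets for length and GC content (span 0.3), an adjusted p under 0.01, each library left out in turn, and the longest transcript as the length. The canonical transcript length was added after the data were seen. The 10 genes, the wider lists and the markers were chosen with earlier results of these data known. All 10 are named, with, of each wider list, any gene called or, in a list without a call, the 2 with the highest mean counts. *Atp13a2*, *Slc3a2*, *Oaz3*, *Arg1* and *Arg2* were named in addition, after their values were seen.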

Additional observations from a re-analysis of the deposited data

How the results depend on the processing

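No alternative called a member, and at an unadjusted p of 0.05 the count was at most 2 of 10 (without control replicate 2). Signs turned with total counts for *Odc1* (0.020), *Srm* (0.023) and *Sat1* (0.0034), a scaling that moved the median of all genes to 0.053, and with length and GC offsets for *Sms* (-0.051) and *Azin1* (-0.017). With a library left out, log2 fold changes ran from -0.10 to 0.030 for *Odc1*, -0.11 to 0.044 for *Srm*, -0.041 to 0.052 for *Sms*, -0.14 to 0.27 for *Smox*, -0.18 to 0.066 for *Sat1*, 0.0056 to 0.072 for *Azin1*, -0.24 to -0.042 for *Amd1* and -0.25 to -0.036 for *Oaz1*, where the lone sample of a condition was assumed to vary like the other condition. Over all genes those fits called 0 to 238 higher and 0 to 170 lower, with 0 in both directions in each fit that left out a control library, and 0 of the wider lists, so they say little about the stability of *Atp13a3* or of the members' lack of calls. With total counts 485 were higher and 194 lower. Without a filter 64 were higher and 22 lower, and at an adjusted p under 0.01 these were 204 and 135. The wider lists had 2 genes higher with total counts, and 0 without a filter, with length and GC offsets or at the stricter threshold. The cause was not tested.

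Libraries of the 2 conditions share only a replicate number, and the deviations of same-numbered libraries had r = 0.058 over 15173 genes. With a replicate block 537 genes were higher and 529 lower, and 2 genes of the wider lists were higher, *Atp13a3* (adjusted p = 0.0108) and *Eif5a* (adjusted p = 0.0432). It called no member.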
